A study of Mus musculus with 2 samples.

Results

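The genes described here are 9 genes of the type 2 immune response and of its triggering by alarmins: the cytokine genes Il4, Il5 and Il13, the transcription factor gene Gata3, the receptor genes Il1rl1, Il4ra and Il9r, and the mediator genes Areg and Calca. They were chosen by symbol, and each matched 1 row of both deposited count matrices, so that 9 of the 32285 genes in the matrices are covered. Both libraries were made from gingiva-infiltrating immune cells of mice of the C57BL/6 strain, in a study of experimental periodontitis, the inflammatory loss of tissue and bone around the teeth. The first carries the genotype label Otud1-/-, which means loss of Otud1, the gene of a deubiquitinase. The second is labelled wild type (WT). The number of animals pooled, their age and sex, the treatment of each group's gums and the deleted part of Otud1 are not stated in the labels. Each genotype had 1 library, so no difference between genotypes has a replicate check and no p-value is given. Intervals are exact 95% intervals that cover counting error only.

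Type 2 immunity is led by group 2 innate lymphoid cells (ILC2), type 2 helper T cells, mast cells and basophils, which secrete IL-4, IL-5 and IL-13. Alarmins are released by injured barrier cells; IL-33, one of them, acts through ST2, the product of Il1rl1. In barrier tissues ILC2 also make amphiregulin (Areg), a growth factor linked to tissue repair, and calcitonin gene-related peptide (from Calca), a neuropeptide known to act back on ILC2.

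Il4, Il13 and Il5 lie together in the type 2 cytokine locus on chromosome 11. On GRCm38 with the GENCODE vM21 annotation, Il4 spans chr11:53602982-53618669 and Il13 spans chr11:53631324-53634702, both on the minus strand. Il5 spans chr11:53720794-53725106 on the plus strand. Between Il4 and Il13 are 12654 bases and between Il13 and Il5 are 86091 bases, with 1 protein-coding gene, Rad50, lying wholly between Il13 and Il5. Il1rl1, which encodes ST2, spans chr1:40429570-40465415 on the plus strand, and its 5 annotated coding transcripts end at 5 different 3′ positions. Gata3 spans chr2:9857078-9890034 on the minus strand, and GATA3 is the lineage factor of ILC2 and type 2 helper T cells. Areg spans chr5:91139599-91148432 and Il4ra chr7:125552120-125579474, both on the plus strand, and Calca spans chr7:114631478-114636357 and Il9r chr11:32187541-32200279, both on the minus strand. The start regions of Il4, Il13, Il5 and Il1rl1 are shown for the motif named after the GATA factors, for Il4 and Il1rl1 at the upstream start only. Each window holds 250 bases before and 50 after the start in RefSeq on GRCm38.p6, written along the gene's own strand, with capitals marking a match on either strand to 1 of 4 motifs, which are AGATAA, its variant ending in G (AGATAG), its variant starting with T (TGATAA) and the variant with both changes (TGATAG).
Il4, chr11:53618616-53618915, minus strand: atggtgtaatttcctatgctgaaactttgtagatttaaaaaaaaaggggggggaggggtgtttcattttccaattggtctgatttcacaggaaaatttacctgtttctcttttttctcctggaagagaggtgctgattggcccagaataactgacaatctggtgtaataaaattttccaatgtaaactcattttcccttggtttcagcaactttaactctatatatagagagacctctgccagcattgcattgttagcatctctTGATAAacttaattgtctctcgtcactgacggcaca
Il13, chr11:53634653-53634952, minus strand: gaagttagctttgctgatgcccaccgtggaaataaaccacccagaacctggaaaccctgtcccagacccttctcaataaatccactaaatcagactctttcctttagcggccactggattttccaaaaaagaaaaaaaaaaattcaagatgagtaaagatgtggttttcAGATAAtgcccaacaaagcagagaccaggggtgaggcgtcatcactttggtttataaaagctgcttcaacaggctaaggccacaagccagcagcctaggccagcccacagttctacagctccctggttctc
Il5, chr11:53720544-53720843, plus strand: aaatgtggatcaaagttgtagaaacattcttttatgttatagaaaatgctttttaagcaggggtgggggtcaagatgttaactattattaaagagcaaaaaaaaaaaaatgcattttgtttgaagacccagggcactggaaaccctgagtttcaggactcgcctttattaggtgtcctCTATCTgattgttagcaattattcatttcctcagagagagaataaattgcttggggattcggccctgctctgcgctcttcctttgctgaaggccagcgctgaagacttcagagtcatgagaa
Il1rl1, upstream start, chr1:40429320-40429619, plus strand: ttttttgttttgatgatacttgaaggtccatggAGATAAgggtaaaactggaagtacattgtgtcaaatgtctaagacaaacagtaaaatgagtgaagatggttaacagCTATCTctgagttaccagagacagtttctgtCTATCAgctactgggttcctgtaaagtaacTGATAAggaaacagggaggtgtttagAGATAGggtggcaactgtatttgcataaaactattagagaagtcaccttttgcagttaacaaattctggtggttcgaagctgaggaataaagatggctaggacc
The Il4, Il13 and Il5 windows hold 1 match each, and the upstream Il1rl1 window holds 5. Of 32817 start windows in the RefSeq table, 29.8% hold at least 1 match, 1.76% hold 3 or more and 0.0548% hold 5 or more. All 9 genes had a window, with 11 windows in all, and 9 of these 11 held a match. The windows without a match were those of Areg and Il4ra, which are not shown. A match describes the letters only.

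The library labelled Otud1-/- held 8109 cell barcodes and 44083735 unique molecular identifiers (UMIs, each standing for 1 captured transcript), and the WT library 13267 barcodes and 44878537 UMIs. After filters and removal of likely doublets 6486 and 11414 cells were kept, with medians of 4175.5 and 2128 UMIs. Otud1 itself stood at 33.0 CPM (counts per 1000000 UMIs of the library or class) in the library labelled Otud1-/- and 18.6 CPM in the WT library, which goes against the label, although reads from a 3′ assay need not report on the deleted part. The library labelled Otud1-/- had 5 Xist UMIs and the WT library 14449, while Y-linked genes had 10368 and 6696 UMIs. The WT library therefore mixes cells of both sexes, and some results are also given for cells with a Y-linked UMI and no Xist UMI. The libraries shared 37 barcodes, 22 of them kept in both, and 0 of these were among the ILC2-like or mast cell and basophil-like cells. Cells were clustered without the 9 genes and named from fixed markers that do not include them.

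Among kept cells the ILC2-like cluster held 32 cells of the library labelled Otud1-/- and 136 WT cells, with medians of 4813 and 2032 UMIs. Its leading genes, beside the 9, included Csf2, Ccl1, Ptpn13, Ccdc184, Hlf and Rnf128. Summed over 12 ILC2 markers it held 3723 CPM in the library labelled Otud1-/- and 3665 CPM in the WT library, against 493 and 442 CPM in T-like cells. Il7r, the interleukin-7 receptor gene, was seen in 100% of the cells labelled Otud1-/- and 66.9% of WT cells. Type 3 innate lymphoid-like cells shared part of this, with Il7r in 100% of 7 and 63.9% of 144 cells. Of the 12 markers, Rora stood there at 1745 and 994 CPM, against 1543 and 1482 CPM in the ILC2-like cluster. Hs3st1 stood there at 79.3 and 54.6 CPM, against 533 and 668 CPM. In the ILC2-like cluster Cd3e, which encodes a T cell receptor subunit, was seen in 2 of 32 and 6 of 136 cells. Some other listed T cell markers were seen more often. Trbc2 was seen in 71.9% and 49.3% of cells, Trbc1 in 53.1% and 44.1% and Ikzf2 in 40.6% and 32.4%. The listed T cell markers summed to 1347 and 1594 CPM with 4 of them at 0 in each library. Nmur1 and Rxrg, both ILC2 markers, were at 0 in the library labelled Otud1-/- and had only 1 and 2 UMIs in the WT library. The mast cell and basophil-like cluster held 21 cells of the library labelled Otud1-/- and 144 WT cells, led by the mast cell protease genes Mcpt4, Cpa3, Tpsb2 and Cma1. Of these, 21 of 21 and 142 of 144 had more UMIs of mast cell than of basophil markers, so the values below describe mast cells in the main.

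Most UMIs of the 3 cytokine genes lay in these small clusters. Il5, the growth and survival factor of eosinophils, had 87 UMIs in kept cells of the library labelled Otud1-/- and 172 in WT cells, of which ILC2-like cells held 97.7% and 87.2%. Il13, whose product drives mucus secretion and alternative macrophage activation, had 45 and 193 UMIs. Of these ILC2-like cells held 77.8% and 57.0%, and mast cell and basophil-like cells 15.6% and 35.8%. Il4, the B cell and T helper 2 differentiation factor, was the scarcest with 15 and 99 UMIs. ILC2-like cells held 33.3% and 26.3% of Il4 UMIs, and mast cell and basophil-like cells 33.3% and 65.7%. T-like cells held 26.7% of Il4 UMIs in the library labelled Otud1-/- and 2.02% in the WT library, that is 4 and 2 UMIs.

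Over all kept cells, Il5 stood at 2.29 CPM in the library labelled Otud1-/- and 5.05 CPM in the WT library, Il13 at 1.19 and 5.67 CPM, and Il4 at 0.395 and 2.91 CPM. ILC2-like and mast cell and basophil-like cells were also fewer in the library labelled Otud1-/-. A library-wide level does not tell fewer such cells from less transcript per cell, so levels are given per cluster from here on.

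**Figure D1:**
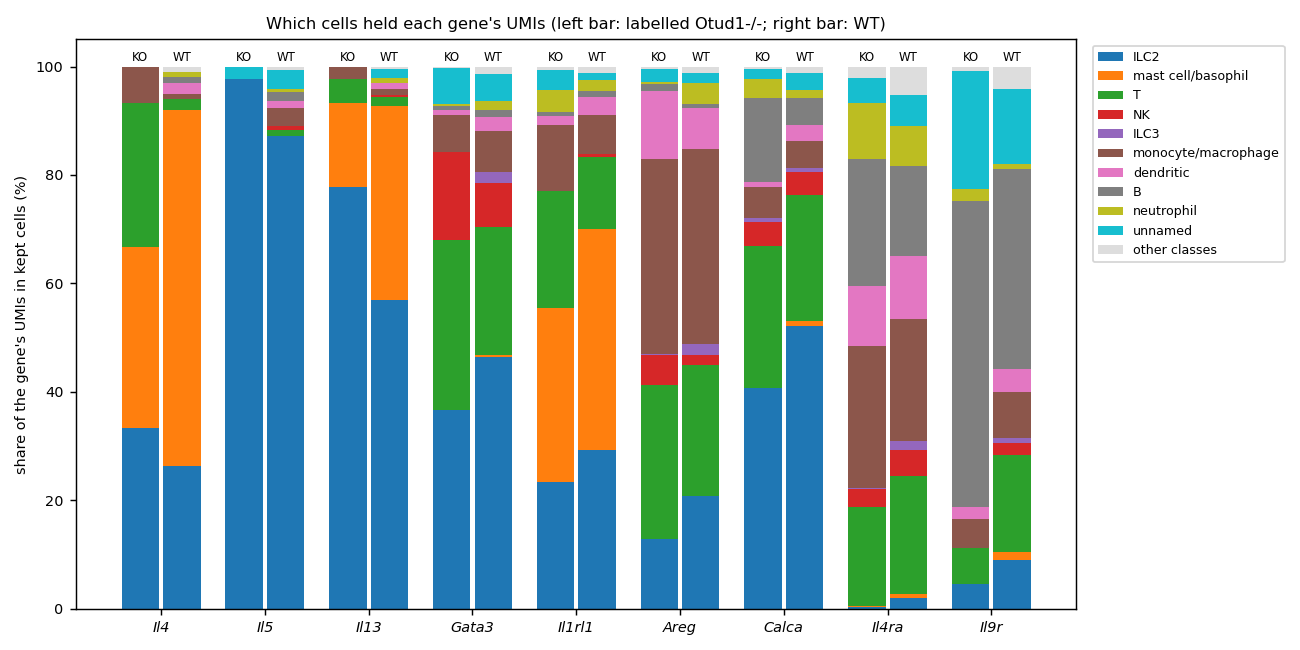
Share of each gene's UMIs in kept cells (y axis, percent) held by each cell class, one pair of stacked bars per gene with the library labelled Otud1-/- on the left and the WT library on the right. Il5 sits almost wholly in ILC2-like cells, Il4 and Il13 are split between ILC2-like and mast cell and basophil-like cells, and Areg, Il4ra and Il9r are spread over many classes.

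The other 6 genes were spread more widely. Gata3 had 555 and 910 UMIs, with 36.6% and 46.4% in ILC2-like and 31.4% and 23.5% in T-like cells. Il1rl1 had 541 and 758 UMIs, with 32.2% and 40.8% in mast cell and basophil-like, 23.3% and 29.3% in ILC2-like and 21.6% and 13.2% in T-like cells. Areg had 1231 and 1718 UMIs, the largest share of them, 36.0% and 35.9%, in monocytes and macrophages. Calca had 226 and 529 UMIs, of which ILC2-like cells held 40.7% and 52.2% and T-like cells 26.1% and 23.3%. Il4ra, the receptor chain shared by IL-4 and IL-13, had the most UMIs of the 9 genes, 3079 and 3119, with 26.1% and 22.4% in monocytes and macrophages, 18.3% and 21.8% in T-like cells and 23.4% and 16.6% in B-like cells. Il9r, the receptor of the mast cell and T cell growth factor IL-9, had 133 and 190 UMIs, of which B-like cells held 56.4% and 36.8%. Per-class values of each gene are comparable between classes, but a 3′ assay gives no length-corrected comparison between genes.

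**Figure D2:**
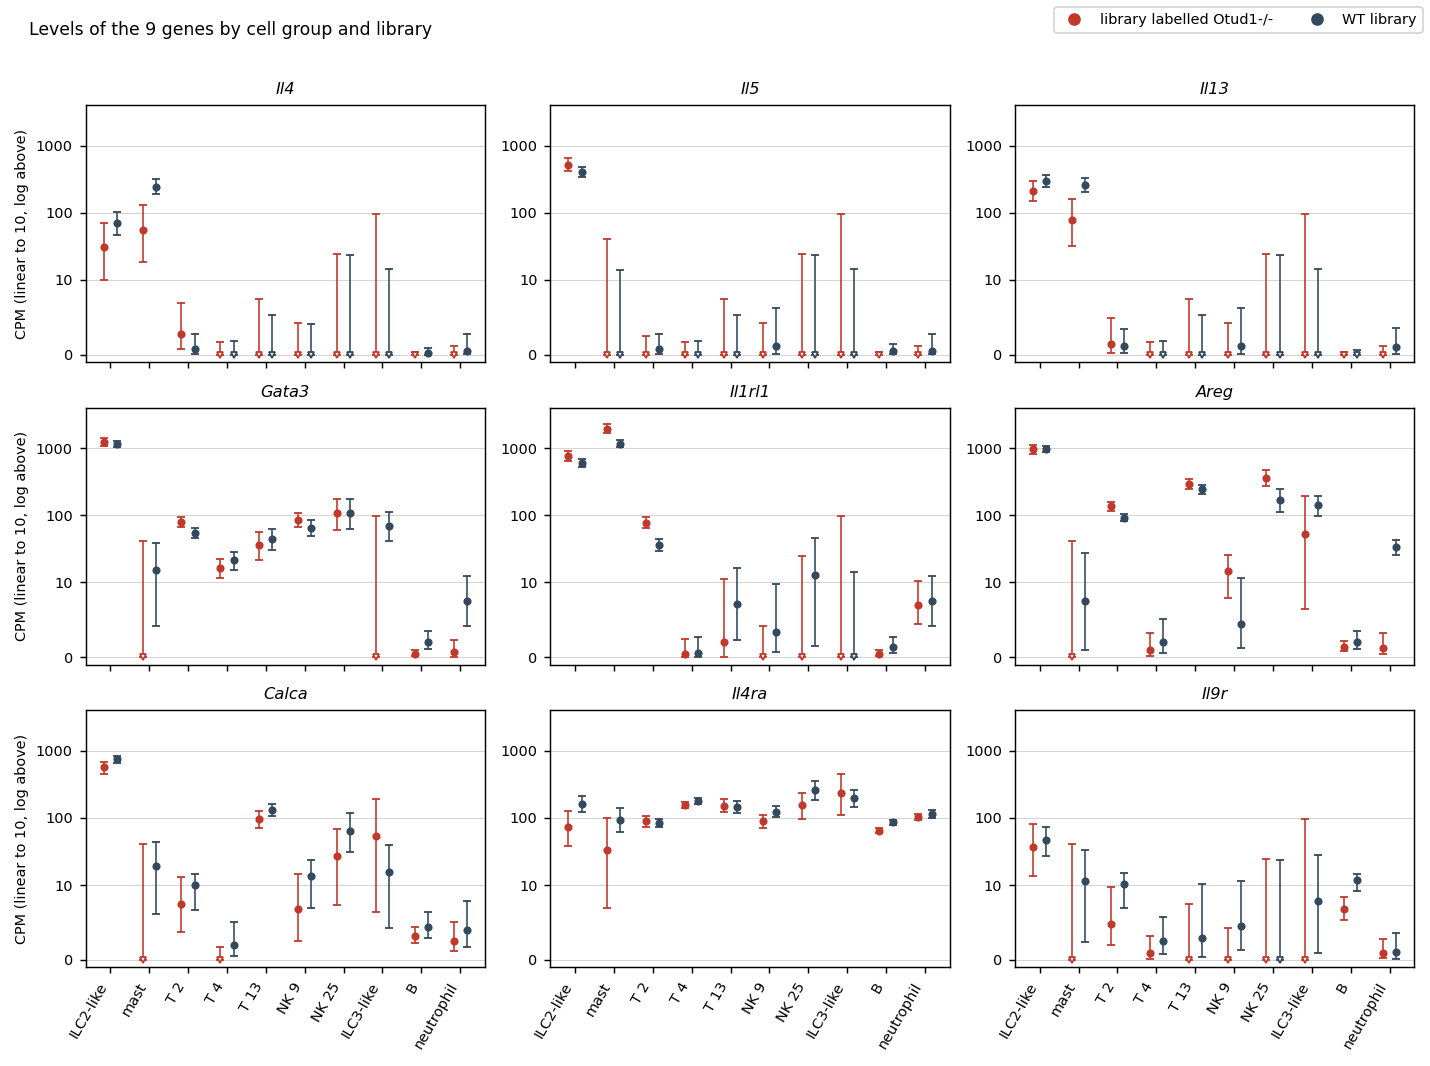
Level of each gene (y axis, CPM of summed UMIs on a symmetric log scale) in 10 groups of cells, with the library labelled Otud1-/- in red on the left of each pair and the WT library in dark on the right. Bars are exact 95% counting intervals and open triangles mark groups with no UMI. Il5 was seen at a high level in ILC2-like cells alone, at 520 CPM and 407 CPM.

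In ILC2-like cells Il5 stood at 520 CPM (416 to 644, 85 UMIs) in the library labelled Otud1-/- and at 407 CPM (345 to 478, 150 UMIs) in the WT library. No other group with Il5 UMIs exceeded 2.31 CPM. A single cell of 7520 UMIs in the library labelled Otud1-/- carried 57 of its 85 Il5 UMIs (67.1%). Without the highest cell of each library Il5 stood at 180 CPM and 362 CPM, so the order of the libraries turned over. The share of ILC2-like cells with an Il5 UMI was 28.1% and 26.5%, against 0% and 0.146% of B-like cells. It was 12.5% and 14.0% once cells were thinned to 1000 UMIs. Cells with fewer UMIs, 0 labelled Otud1-/- and 7 WT in this class, were left out of thinned shares.

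Il13 in ILC2-like cells stood at 214 CPM (149 to 298) in the library labelled Otud1-/- and 299 CPM (245 to 360) in the WT library, a ratio of 0.718 (0.476 to 1.06) whose log2 value of −0.48 became 0.02 when cells over 5% mitochondrial UMIs were left out. It was seen in 31.3% and 21.3% of cells, 9.38% and 12.4% after thinning, and in 0% of B-like cells of either library. Il4 stood at 30.6 CPM (9.94 to 71.4) and 70.6 CPM (46.1 to 103), from 5 and 26 UMIs. Its ratio of 0.434 lay past 1.5-fold, but the interval of 0.13 to 1.15 includes no difference. After thinning Il4 was seen in 3.13% and 3.88% of cells.

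The cytokine genes were mostly seen one at a time. In the library labelled Otud1-/- 18 of 32 ILC2-like cells (56.3%) had a UMI of Il4, Il5 or Il13, and 15 of these had exactly 1 of the genes, 2 had 2 and 1 had all 3. In the WT library 62 of 136 cells (45.6%) had such a UMI, 49 with exactly 1 gene, 10 with 2 and 3 with all 3. Cells with a cytokine UMI were deeper, at medians of 5481 and 3510 UMIs against 3563.5 and 1720.5 in cells without. Over both libraries Il13 was seen in 12 of 45 Il5-positive cells (26.7%) and in 27 of 123 others (22%). It was seen in 8 of 16 Il4-positive cells (50%) and in 31 of 152 others (20.4%). Depth differs between these cells, and its part in the overlap was not tested.

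**Figure D3:**
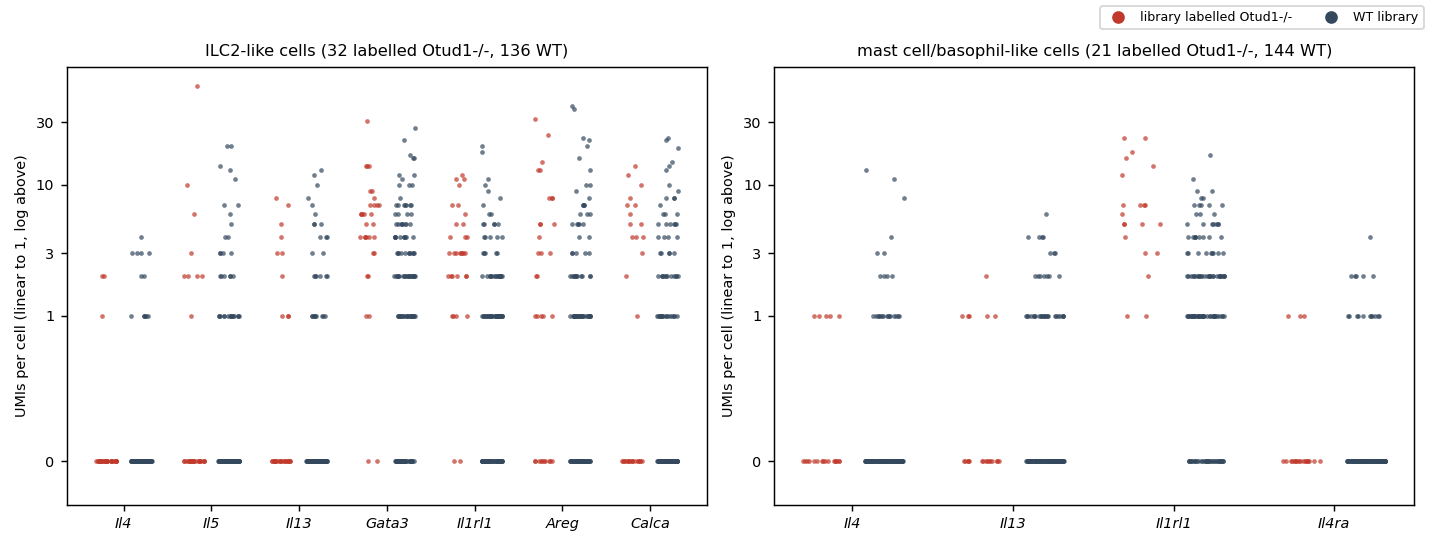
UMIs of each gene per cell (y axis) in ILC2-like and in mast cell and basophil-like cells, 1 point per cell, with the library labelled Otud1-/- on the left of each pair. A single ILC2-like cell labelled Otud1-/- holds 57 Il5 UMIs, and no Il4-positive mast cell or basophil-like cell labelled Otud1-/- holds more than 1 Il4 UMI, against up to 13 in WT cells.

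Gata3 was seen in most ILC2-like cells. It stood at 1243 CPM (1078 to 1426) in the library labelled Otud1-/- and 1146 CPM (1039 to 1260) in the WT library, and was seen in 93.8% and 70.6% of cells, against 0.140% and 0.535% of B-like cells. Il1rl1 stood at 772 CPM (643 to 919) and 603 CPM (526 to 687), a ratio of 1.28 (1.02 to 1.60) that did not reach 1.5-fold. It was seen in 93.8% and 55.1% of cells, against 0.140% and 0.389% of B-like cells, and in 43.8% and 38.0% after thinning, beside the medians of 4813 and 2032 UMIs per cell.

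Areg stood at the same level in both libraries, 967 CPM (822 to 1131) in cells labelled Otud1-/- and 967 CPM (869 to 1072) in WT cells, with a ratio of 1.0 (0.825 to 1.21). Calca stood at 563 CPM (454 to 691) and 749 CPM (664 to 843), a ratio of 0.752 (0.587 to 0.955). Its log2 ratio of −0.41 turned to 0.09 when cells over 5% mitochondrial UMIs were left out. Its 6 coding transcripts, which end at 6 different 3′ positions, were counted together, so calcitonin and neuropeptide forms were not separated. The same holds for the membrane and soluble forms of Il1rl1. Il4ra was lower past 1.5-fold, at 73.5 CPM (38.0 to 128) against 163 CPM (124 to 210), a ratio of 0.451 (0.221 to 0.847). Il9r stood at 36.7 and 46.2 CPM from only 6 and 17 UMIs.

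Counted by the 1.5-fold mark, 2 of the 9 genes (Il4 and Il4ra, both lower) lay past it in ILC2-like cells. Of the 3257 genes with at least 20 UMIs in that class, 29.4% did, 13.8% higher and 15.6% lower, so the count of members is close to the background. The median log2 ratio of the 9 was −0.33, beside 0.00 over all genes compared. Within single cells of both libraries, Il5-positive ILC2-like cells held 1037 CPM of Calca and 1507 CPM of Gata3, against 508 and 999 CPM in Il5-negative cells. Il13-positive cells held 1402 CPM of Areg and 530 CPM of Calca, against 792 and 757 CPM in Il13-negative cells. In the WT library, Areg-positive cells held 479 CPM of Calca and Areg-negative cells 1178 CPM. These are descriptions of cells of 1 cluster, not of replicates.

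Mast cell and basophil-like cells carried Il4, Il13 and Il1rl1 and none of the Il5 transcript. Il4 stood at 56.0 CPM (18.2 to 131, 5 UMIs) in the library labelled Otud1-/- and 246 CPM (190 to 313, 65 UMIs) in the WT library, a ratio of 0.228 (0.0716 to 0.560). All 5 Il4-positive cells labelled Otud1-/- had 1 UMI each. Among the 25 Il4-positive WT cells, 15 had 1 UMI, 7 had 2 to 4 and 3 had 5 or more, up to 13. Il13 stood at 78.4 CPM (31.5 to 162) and 261 CPM (203 to 330), a ratio of 0.301 (0.117 to 0.653). Without the highest cell of each library Il4 stood at 48.7 and 198 CPM and Il13 at 59.2 and 241 CPM, so neither difference rested on 1 cell.

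The share of cells with an Il4 UMI was 23.8% in the library labelled Otud1-/- and 17.4% in the WT library, and 4.76% and 11.4% after thinning. Il13 was seen in 28.6% and 27.1% of cells, and in 4.76% and 18.4% after thinning. The unthinned shares thus run against the CPM, and no order is read from them.

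Il1rl1 ran the other way in these cells, at 1949 CPM (1670 to 2261) in the library labelled Otud1-/- and 1168 CPM (1041 to 1306) in the WT library, a ratio of 1.67 (1.38 to 2.02). It was seen in 100% and 74.3% of cells, 81.0% and 61.4% after thinning. Il4ra stood at 33.6 CPM and 94.5 CPM from 3 and 25 UMIs, a ratio of 0.356 (0.0687 to 1.17). Il5 was at 0 in both libraries, where 3 counts over the class, the limit used here for a count of 0, would be 33.6 and 11.3 CPM. Gata3, Areg, Calca and Il9r were at 0 in the library labelled Otud1-/- and at 15.1, 7.56, 18.9 and 11.3 CPM in the WT library.

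All 4 of the members compared in this class lay past 1.5-fold, 1 higher and 3 lower, where 40.2% of its 2689 compared genes did, 20% higher and 20.1% lower. Other values moved between the libraries too. Mast cell markers summed to 97828 CPM in the library labelled Otud1-/- and 49013 CPM in the WT library, among them the carboxypeptidase gene Cpa3 at 18997 and 9099 CPM. T cell markers summed to 403 and 1463 CPM and B cell markers to 952 and 1232 CPM, and their part in these differences was not tested. In cells with a Y-linked UMI and no Xist UMI, 14 labelled Otud1-/- and 38 WT, Il4 stood at 40.4 and 278 CPM, Il13 at 94.2 and 301 CPM and Il1rl1 at 1965 and 1280 CPM.

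**Figure D4:**
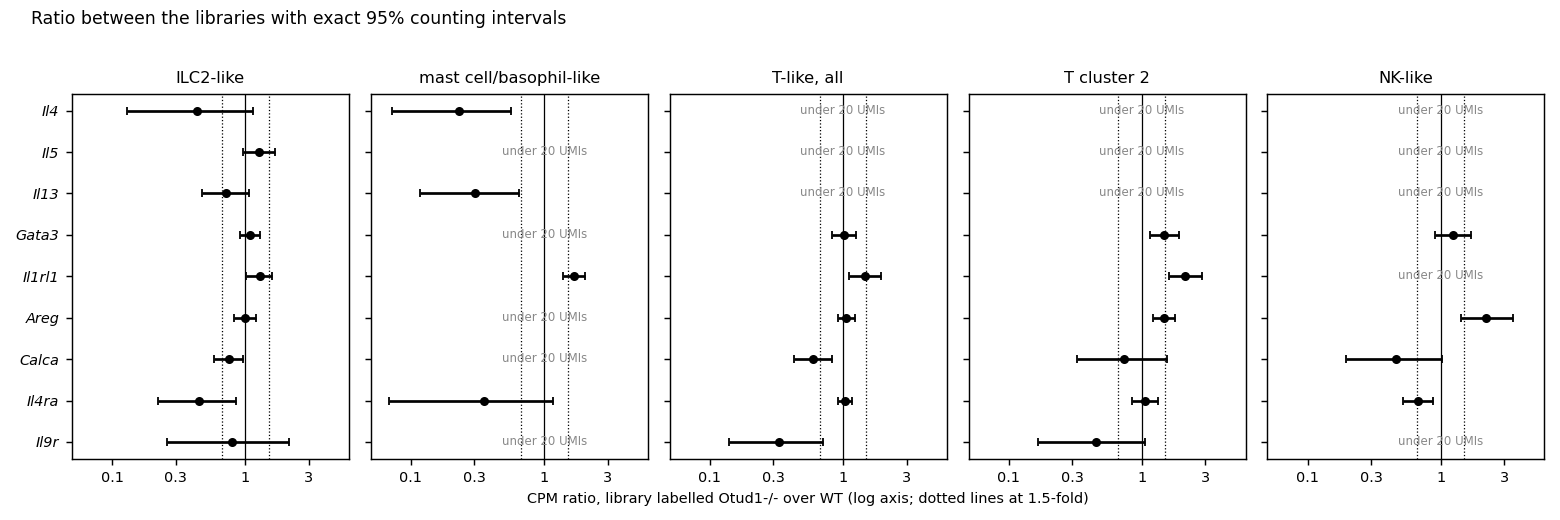
Ratio of CPM in the library labelled Otud1-/- over the WT library (log axis) for each gene in 5 groups of cells, with exact 95% counting intervals and dotted lines at 1.5-fold. Genes with fewer than 20 UMIs over both libraries were not compared. Il4 and Il13 in mast cell and basophil-like cells have intervals that lie wholly below 1, and Il1rl1 has intervals wholly above 1 there, in ILC2-like cells, in all T-like cells and in T cell cluster 2.

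The cells named T-like fell into 3 clusters, and the libraries filled them unevenly, so values are set side by side within clusters. Cluster 2, led by Tnfrsf4, Ctla4 and Ikzf2, held 237 cells labelled Otud1-/- and 955 WT cells. Cluster 4, led by Dapl1, Lef1 and Tcf7, held 469 and 504. Cluster 13, led by Trdc, Cd163l1 and Il17a, genes of gamma delta and interleukin-17-producing T cells, held 103 and 316. The type 2 cytokines were nearly absent from these 3 clusters. Il4 had 4 and 2 UMIs, Il5 0 and 2, and Il13 2 and 3 in all T-like cells. In cluster 2, 2 of 237 and 5 of 955 cells had a UMI of any of them. One of those cells labelled Otud1-/- held 16 UMIs of basophil markers and 5 of Cd3 genes, and it alone accounted for 3 Il4 and 2 Il13 UMIs. No UMI of Il4, Il5 or Il13 was seen in clusters 4 and 13. Clusters 19 and 22 also carried T cell markers, but the naming rule left them unnamed, so they lie outside the T-like values. Cd3d was seen in 87.5% of 16 cells labelled Otud1-/- and 79.5% of 151 WT cells of cluster 19. In cluster 22 it was seen in 90.9% of 99 and 81.0% of 58 cells. Cluster 19 held 3 Il13 UMIs in WT cells (5.42 CPM), and cluster 22 held 1 Il5 UMI labelled Otud1-/-.

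Il1rl1 was seen in T-like cells of cluster 2, at 77.4 CPM in the library labelled Otud1-/- and 36.5 CPM in the WT library, a ratio of 2.12 (1.60 to 2.82). Gata3 stood there at 80.1 and 54.3 CPM, a ratio of 1.48 (1.15 to 1.90), and Areg at 136 and 92.7 CPM, a ratio of 1.47 (1.21 to 1.78). In cluster 4 Il1rl1 had 1 UMI in each library, and in cluster 13 it had 1 and 5. Of 6 members compared in cluster 2, Il1rl1 lay past 1.5-fold higher and Il9r lower, at 4.71 and 10.5 CPM with an interval of the ratio of 0.165 to 1.06, where 17.1% of all 9059 compared genes lay past it, 8.3% higher and 8.76% lower. In cells with a Y-linked and no Xist UMI the cluster 2 values were closer, 67.2 and 53.1 CPM for Il1rl1, 62.3 and 47.8 CPM for Gata3 and 121 and 106 CPM for Areg.

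Foxp3, which encodes the defining factor of regulatory T cells, had a UMI in 51 of 237 cluster 2 cells labelled Otud1-/- (21.5%) and 87 of 955 WT cells (9.11%). These cells carried the highest levels. Il1rl1 stood at 194 and 169 CPM in cells with a Foxp3 UMI, against 39.3 and 14.9 CPM in cells without. Areg stood at 326 and 217 CPM with Foxp3 and 74.1 and 72.6 CPM without, and Gata3 at 151 and 108 CPM with it and 57.1 and 45.5 CPM without. The share of Foxp3-positive cells moved with the library, and so did depth, at medians of 6281 and 2717 UMIs in Foxp3-positive cells. No Il4, Il5 or Il13 UMI was seen in the Foxp3-positive cells. Over both libraries 77 of 1192 cluster 2 cells had an Il1rl1 UMI. Of these 40.3% had an Areg UMI and 46.8% a Gata3 UMI, against 12.2% and 12% of the others.

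**Figure D5:**
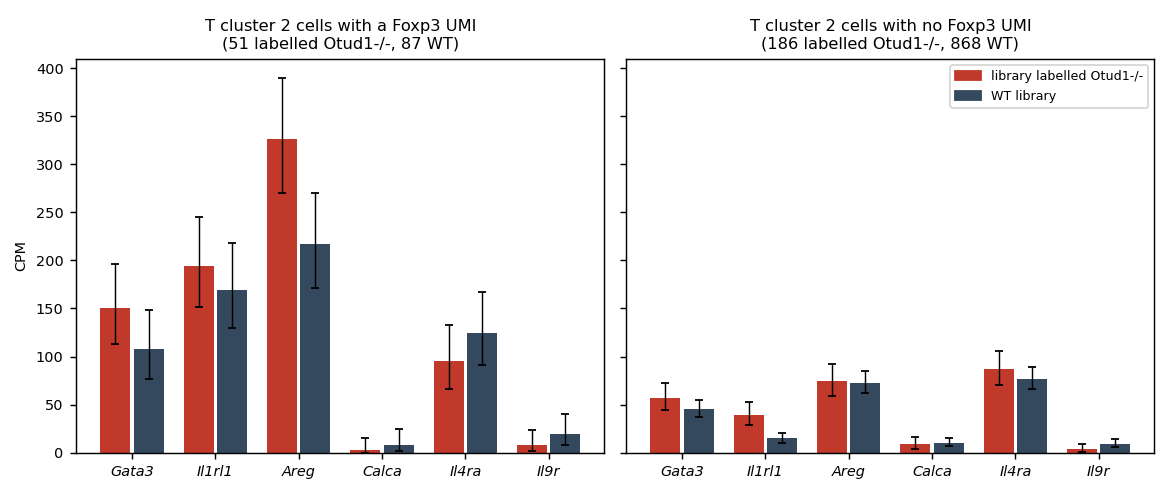
CPM (y axis) of 6 genes in T cell cluster 2, split by whether a cell had a Foxp3 UMI, with the library labelled Otud1-/- on the left of each pair and exact 95% counting intervals. Il1rl1, Areg and Gata3 stood higher in cells with a Foxp3 UMI in both libraries, for example Il1rl1 at 194 and 169 CPM with it and 39.3 and 14.9 CPM without.

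Cluster 13 carried Areg and Calca. Areg stood at 295 CPM in the library labelled Otud1-/- and 244 CPM in the WT library, a ratio of 1.21 (0.963 to 1.52). Calca stood at 96.4 and 133 CPM, a ratio of 0.726 (0.501 to 1.04), and 1 cell held 22 of the 48 Calca UMIs labelled Otud1-/-. Over all T-like cells Calca was lower past 1.5-fold, at 13.9 and 23.2 CPM, as was Il9r, at 2.12 and 6.42 CPM, so that 2 of 6 members lay past the mark beside 13.4% of all 10408 genes compared, 2.8% higher and 10.6% lower. In clusters 4 and 13, where 0 of 2 and 0 of 4 members did, 17.4% and 24.3% of all genes lay past it. Il4ra was seen in every T cell cluster, from 88.9 and 83.8 CPM in cluster 2 to 157 and 179 CPM in cluster 4. Over all T-like cells the Il4ra log2 ratio was 0.05, and −0.23 in cells with a Y-linked and no Xist UMI.

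Among the other innate lymphocytes, the 2 clusters of natural killer-like cells held 213 cells labelled Otud1-/- and 538 WT cells. Gata3 stood at 88.3 and 71.7 CPM, a ratio of 1.23 (0.898 to 1.70). Cluster 25, led by Gzmc, Xcl1, Cd160 and Ncr1, was mixed for other natural killer cell markers. It held 3 and 2 UMIs of Eomes, 2 and 0 of Gzma and none of Klra4 or Klra8. Nkg7 was seen in 92.6% and 66.2% of its cells, Klrk1 in 92.6% and 63.2%, and Il7r in 63.0% and 44.1%. Values are therefore given for each cluster beside the class. Cluster 25 carried most of the Areg, at 361 and 172 CPM, and cluster 9 had 14.8 and 4.50 CPM. Over both clusters the Areg ratio was 2.19 (1.41 to 3.48), with the highest cells holding 33 of 67 and 15 of 31 UMIs. In cells with a Y-linked and no Xist UMI the direction of Areg turned over, to a log2 ratio of −0.49 from 1.12 in all cells. In natural killer-like cells 2 of 4 members lay past 1.5-fold, Areg higher and Calca lower at 9.71 and 21 CPM, where 22.8% of all 7220 compared genes did, 7.78% higher and 15% lower. In cluster 9 this held for 0 of 2 members (23.9% of all genes), and in cluster 25 for 2 of 3 (30.1% of all genes, 15.3% higher and 14.9% lower), Areg higher and Il4ra lower at 154 and 261 CPM. Type 3 innate lymphoid-like cells, 7 labelled Otud1-/- and 144 WT, had no UMI of Il4, Il5, Il13 or Il1rl1, and WT cells had Gata3 at 70.2, Areg at 140 and Il4ra at 195 CPM.

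Outside these lymphocytes, Areg and Il1rl1 appeared in a cluster of monocytes and macrophages, with Areg at 127 and 165 CPM and Il1rl1 at 18.8 and 18 CPM in the library labelled Otud1-/- and the WT library. Il9r was seen in 2.17% and 2.92% of B-like cells, at 6.72 and 11.7 CPM. Il4ra in B-like cells stood at 64.6 and 86.7 CPM. In levels from high to low, Il5 was highest in ILC2-like cells, and Il1rl1 in mast cell and basophil-like cells followed by ILC2-like cells and T cell cluster 2. Il4 was highest in mast cell and basophil-like cells, then ILC2-like cells, with overlapping intervals in the library labelled Otud1-/- and separate ones in the WT library. Il13 intervals of ILC2-like and mast cell and basophil-like cells overlapped in both libraries. Gata3 in ILC2-like cells stood far above the next group, cluster 25 at 107 CPM (61.2 to 174) in the library labelled Otud1-/- and 108 CPM (63.0 to 173) in the WT library, whose intervals overlapped those of cluster 9 at 85.2 and 65.2 CPM. Areg was likewise highest in ILC2-like cells. Next came cluster 25 and then T cell cluster 13 in the library labelled Otud1-/-, and the reverse in the WT library, with overlapping intervals in both. The WT interval of cluster 25, 113 to 250 CPM, also overlapped that of monocyte and macrophage cluster 12 at 165 CPM (146 to 186). Calca came next after ILC2-like cells in T cell cluster 13, with separate intervals. Il4ra showed no such lead. Its highest value was 238 CPM (109 to 452) from 7 type 3 innate lymphoid-like cells labelled Otud1-/- and 261 CPM (187 to 354) in WT cells of cluster 25, and both intervals overlapped those of the groups next in order. Reads of Gata3, Il5 and Il4ra cannot be told apart from those of overlapping antisense genes unless strand was used in counting, which is not given in the sources used here. Gata3 also overlaps the protein-coding gene 9230102O04Rik on its own strand and 4930412O13Rik on the other.

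Likeness to other genes was read from CPM on a log2 scale over 45 sums of a cluster and a library. Sums of fewer than 50 cells were left out, so that 17 points came from the library labelled Otud1-/- and 28 from the WT library, and the ILC2-like and mast cell and basophil-like clusters entered through their WT cells only. Among genes other than the 9, Il4 was most like Tph1 (Pearson r = 0.89), the serotonin synthesis gene of mast cells, and Il13 most like Rnf128 (r = 0.89), while Il5 was most like Csf2 (r = 0.93) and Il2 (r = 0.93). By the same measure Gata3 was most like Tnfrsf18 (r = 0.87), Calca like Pde10a (r = 0.89), Il1rl1 like Cd200r1 (r = 0.84), Areg like Wls (r = 0.83), Il4ra like Gpr132 (r = 0.91) and Il9r like Hs3st1 (r = 0.79). Some of the 9 genes were closer to each other than to any of these, Il4 and Il13 at r = 0.97, Il4 and Il1rl1 at r = 0.90 and Il13 and Il1rl1 at r = 0.90, while Il4ra and Il9r were close to unrelated (r = 0.02). Among these points Il5 exceeded 2.31 CPM only in WT ILC2-like cells, so its r values rest on 1 point. Those of Il4 and Il13, also with each other, rest mainly on the WT ILC2-like and mast cell and basophil-like points. Csf2 and Hs3st1 were also on the marker list for ILC2, and Tph1 was on the list for mast cells and basophils. Clusters of 1 library share depth and free RNA, so these are descriptions of 45 points that are not independent.

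Of 65 other genes of the pathway, 23 had at least 20 UMIs in ILC2-like cells, 5 of them higher and 5 lower past 1.5-fold in the library labelled Otud1-/-, with a median log2 ratio of 0.06. Over all 3257 genes compared there, 13.8% were higher and 15.6% lower, with a median of 0.00. Il2, a T cell growth factor gene, had 0 UMIs labelled Otud1-/- and 30 WT UMIs, at least 4.43-fold lower when 3 counts over the class stand for 0. Socs1, a feedback inhibitor of cytokine signalling, was higher at 184 and 46.2 CPM, and Ptgir, a prostacyclin receptor gene, lower at 49.0 and 111 CPM. The transcription regulator genes Id2 (1659 and 1382 CPM), Rora (1543 and 1482 CPM) and Ets1 (888 and 1040 CPM) did not reach 1.5-fold. Il7r was higher, at 1121 and 700 CPM. Ramp3 and Ramp1, partners of the receptors for peptides of the Calca family, stood at 778 and 603 CPM and at 159 and 130 CPM. None of the 6 alarmin and neuropeptide genes on the list (Il25, Il33, Tslp, Nmu, Vip and Adcyap1) reached 20 UMIs in any class compared.

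In mast cell and basophil-like cells 16 genes of the list were compared, 5 higher and 4 lower, beside 20% higher and 20.1% lower over all genes. Maf, a type 2 transcription factor gene, stood at 22.4 and 83.2 CPM, Ets1 at 213 and 567 CPM, and Il6, an inflammatory cytokine gene, at 146 and 60.5 CPM. In T-like cells 37 were compared, 1 higher and 7 lower, beside 2.8% and 10.6% of all genes. In natural killer-like cells 26 were compared, 3 higher and 8 lower, beside 7.78% and 15% of all genes. Nothing particular to the list is read from these counts.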

How the data were processed

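Gingiva-infiltrating immune cells of 1 library per genotype were measured by 10x Genomics 3′ single-cell RNA sequencing, chemistry 3.1, per the labels' protocols. The deposited values are raw UMI counts per gene and barcode. The submitters' processing notes name Cell Ranger 5.0.0, Seurat 3.2.3 and build mm10, whereas the matrix headers name Cell Ranger 6.0.1. The members and gene lists were chosen with earlier results of these data known.

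Barcodes under 200 genes or over 15% mitochondrial UMIs were left out. The automatic doublet threshold marked 97.2% and 94.1% of the cells that passed these filters, so the highest scores at 0.8% per 1000 barcodes were removed instead (450 and 1355). Leiden clustering (scanpy 1.11.5, leidenalg 0.10.2, resolution 1, 2000 variable genes, 30 components, 20 neighbours) left out the 9 genes, Otud1, sex-linked, immunoglobulin, T cell receptor, ribosomal and mitochondrial genes. The rule that turned fixed markers into names was set after seeing the data. UMIs were summed per class and library and given as CPM with exact Poisson intervals, ratios with exact binomial intervals, and shares with exact Clopper-Pearson intervals. The intervals cover counting error only. Ratios needed 20 UMIs over both libraries. The mark of 1.5-fold is a size, not a test. Cells were thinned to 1000 UMIs for shares, and cells with fewer UMIs were left out of these. The steps were tested on simulated data. The text names all 9 genes, and of the other pathway genes those with the 3 largest log2 ratios of a class or the 3 highest levels of a role; likeness names the highest r among genes other than the 9 with at least 100 UMIs. Python 3.11.15, numpy 2.4.6 and scipy 1.17.1 were used. Promoter windows are from RefSeq on GRCm38.p6 and gene spans from GENCODE vM21.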

Additional observations from a re-analysis of the deposited data

How the results depend on the processing

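Each class was recomputed without doublet removal, with at most 5% mitochondrial UMIs, with 2 other scalings, with other count floors, at other clustering resolutions, with the members among the variable genes, without the highest cell, in cells with a Y-linked and no Xist UMI, after thinning, and without barcodes found in both libraries (chosen after seeing the data). Of 280 log2 ratios of members 265 stayed within the counting interval of the main value and 15 lay outside it. The sign changed in 17, of which 7 lay outside the interval and 1 had been past 1.5-fold, Areg in natural killer-like cells at −0.49 in cells with a Y-linked and no Xist UMI. Other count floors decide only which genes are compared and cannot move a ratio. Leaving out shared barcodes removed 0 ILC2-like and 0 mast cell and basophil-like cells. The count of 265 therefore includes values that could not move, so no stability is read from it. The number of members past 1.5-fold, 2 in ILC2-like, 2 in T-like, 2 in natural killer-like and 4 in mast cell and basophil-like cells, became 1, 1 and 1 in the first 3 with a floor of 50 UMIs, where fewer genes are compared. It became 4 in ILC2-like cells without the highest cell, 1 in T-like cells with a Y-linked and no Xist UMI, and after thinning 5 in ILC2-like, 0 in natural killer-like and 2 in mast cell and basophil-like cells. The cause was not tested, beyond the fewer UMIs that thinning leaves. Il5 in ILC2-like cells went against its main log2 ratio of 0.35 without the highest cell (−1.01) and after thinning (−0.91), Calca in ILC2-like cells against −0.41 at the 5% limit (0.09), and Calca in T-like cells stood at −1.24 without the highest cell, beside −0.72. Leaving out a replicate would empty a group. No paired analysis was possible because each genotype had 1 library. Small classes limit the depth: 32 and 21 cells labelled Otud1-/- gave 5 Il4 UMIs each.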

Other observations

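The WT library holds cells with and without Xist, and its ILC2-like cells can be set apart by sex-linked transcripts, as a grouping made from the data and not the study's own. In WT cells with a Y-linked UMI and no Xist UMI (40 cells) Il5 stood at 643 CPM and in those with Xist and no Y-linked UMI (37 cells) at 260 CPM. Il4 stood at 102 and 28.9 CPM, Il13 at 278 and 173 CPM and Il1rl1 at 796 and 569 CPM in the same order, while Areg stood at 935 and 1185 CPM. The 22 ILC2-like cells labelled Otud1-/- with a Y-linked UMI and no Xist UMI had Il5 at 672 CPM, Il4 at 40.5 CPM and Il13 at 146 CPM, set beside the WT cells of the same kind at 643, 102 and 278 CPM. These 22 cells held 83 Il5 UMIs, and the single cell with 57 Il5 UMIs is among them. Their Il5 value of 672 CPM thus rests largely on 1 cell. Both grouping and depth affect which cells enter, and their part was not tested.

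Barcodes that failed a filter or were removed as doublets, 1623 in the library labelled Otud1-/- and 1853 in the WT library, held 1 and 9 UMIs of Il4, 6 and 38 of Il5, and 1 and 50 of Il13, which enter none of the levels above. Eosinophil markers were near 0 in both libraries, so no cluster is described as eosinophils.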
